A study of Mus musculus with 9 samples.

Results

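The activin, follistatin and bone morphogenetic protein (BMP) genes examined here are 10 genes of the transforming growth factor beta superfamily, taken as every probe set whose platform symbol is exactly Inhba, Inhbb, Fst, Fstl3, Acvr1b, Acvr2a, Acvr2b, Bmp7, Bmpr2 or Id1. They are covered by 21 of the 45037 probe sets tested, and by 10 of the 18193 genes with a single symbol. Inhba was selected on its rise in these same arrays, so its values are described with no test. The other 9 genes are its partners, antagonists and receptors and the BMP branch of the pathway. The diabetic mice were labelled OVE-GFP, on the FVB background (5 arrays). The normal mice were labelled wild type, on the same background (4 arrays). All were 3 to 4 months old. OVE26 mice become diabetic early in life because a calmodulin transgene driven by an insulin promoter damages their pancreatic beta cells. The study's description says that green fluorescent protein marked the podocytes, which were sorted from trypsin-digested glomeruli; the genotype label of the normal mice does not name that transgene. Each array carries amplified RNA from the sort of 1 mouse, and values are log2 probe set intensities. Differences are OVE26 minus FVB on that scale.

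Activins are dimers of the beta subunits encoded by Inhba and Inhbb. They bind the type II receptors encoded by Acvr2a and Acvr2b, which recruit the type I receptor encoded by Acvr1b, and the signal passes to SMAD2 and SMAD3. BMPs such as BMP7 use the type II receptor BMPR2 as well as the activin type II receptors, signal through SMAD1, SMAD5 and SMAD9, and switch on Id genes. Follistatin and follistatin-like 3 bind activins outside the cell and keep them from their receptors, while gremlin, noggin and chordin do so for BMPs. In the kidney BMP7 is needed for nephron formation and is made by podocytes and by tubule cells, and activin A is known from regenerating and fibrotic tubules.

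Quartiles were alike across the arrays, with medians from 5.07 to 5.15 and 25th percentiles from 3.26 to 3.34. Values below the 25th percentile are taken here as not told from background, since the table holds no detection calls. Pearson's r over all probe sets, a description since probe sets are not replicates, was 0.960 to 0.985 between OVE26 arrays and 0.980 to 0.989 between FVB arrays. The podocyte markers Nphs1, Podxl, Synpo and Wt1 lay at or above the 96.3rd percentile of every array. The array FVB 2 stands apart from the other FVB arrays in several results below. It is also the only FVB array in which Xist exceeded the Y-linked genes (by 9.36), as it did in OVE26 2, 3 and 5, and the labels do not give the sex of the mice. By limma 0.195% of all probe sets (88) were called higher and 0.0755% (34) lower at an adjusted p under 0.05. These counts were 323 and 101 without FVB 2, 49 and 21 without OVE26 1, 85 and 23 without OVE26 2, 39 and 9 without OVE26 4, 33 and 4 without OVE26 5, and 1 and 0 without FVB 1. They were 0 and 0 without OVE26 3, FVB 3 or FVB 4 (by limma, with 5674, 4973 and 5021 probe sets at an unadjusted p under 0.05).

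The promoter windows of Inhba, Fstl3 and Grem1 are shown because they are the activin subunit gene, the activin antagonist gene and the BMP antagonist gene with the clearest higher values in OVE26 arrays. Grem1 passed the test, Fstl3 did not, and Inhba was not tested. The windows are from RefSeq (GRCm38.p6), run from 250 bases before to 50 bases after a listed transcription start, and are written 5′ to 3′ on the gene's strand. Capitals mark matches, on either strand, to the SMAD-binding letters CAGAC, the BMP-responsive letters GGCGCC, the AP-1 letters TGANTCA and the TATA box letters TATAAA.
Inhba chr13:16011601-16011900 (+ strand): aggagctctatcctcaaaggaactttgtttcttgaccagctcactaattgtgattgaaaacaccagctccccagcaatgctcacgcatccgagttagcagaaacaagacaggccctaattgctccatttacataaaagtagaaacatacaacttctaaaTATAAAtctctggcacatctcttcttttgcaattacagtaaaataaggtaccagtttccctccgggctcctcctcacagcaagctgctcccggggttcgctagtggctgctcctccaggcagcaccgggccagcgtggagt
Fstl3 chr10:79777024-79777323 (+ strand): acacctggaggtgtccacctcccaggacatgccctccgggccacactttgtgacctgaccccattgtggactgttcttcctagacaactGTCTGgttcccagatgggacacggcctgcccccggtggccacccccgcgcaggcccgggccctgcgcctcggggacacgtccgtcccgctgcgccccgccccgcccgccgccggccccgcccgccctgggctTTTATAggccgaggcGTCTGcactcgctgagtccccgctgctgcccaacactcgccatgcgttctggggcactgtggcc
Grem1 chr2:113758599-113758898 (- strand): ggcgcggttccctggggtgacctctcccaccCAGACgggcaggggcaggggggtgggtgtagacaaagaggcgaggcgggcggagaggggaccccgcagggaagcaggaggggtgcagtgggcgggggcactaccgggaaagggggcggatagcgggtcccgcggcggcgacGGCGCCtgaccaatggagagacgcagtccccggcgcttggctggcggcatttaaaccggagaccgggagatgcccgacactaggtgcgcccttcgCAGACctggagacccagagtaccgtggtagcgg
Inhba held TATAAA once and none of the other 3 motifs. Fstl3 held the SMAD letters at 2 places and the TATA letters once, all of them on the opposite strand. Grem1 held the SMAD letters at 2 places and GGCGCC once. Of 32851 promoter windows of this length, 49.6% held CAGAC, 11.9% GGCGCC, 7.81% TGANTCA and 13.6% TATAAA. Such matches are descriptions of letters, not binding sites. The table held windows for 7 of the 10 genes.

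Inhba encodes the beta A subunit of activin A. Its probe set 1422053_at read 7.31, 6.76, 7.14, 7.56 and 6.94 in OVE26 arrays 1 to 5, against 4.96, 6.13, 4.78 and 4.41 in FVB arrays 1 to 4. All OVE26 arrays lay above all FVB arrays, and FVB 2 lay far above the other FVB arrays. OVE26 arrays averaged 7.14 ± 0.31 (SD, n = 5), against 5.07 ± 0.74 for FVB arrays (SD, n = 4), a difference of 2.07 or 4.21-fold. Without FVB 2 the difference was 2.43. In sorted cells read in bulk, a change in the number of contributing cells cannot be told apart from a change in RNA per cell. The second Inhba probe set, 1458291_at, did not share this pattern. It read from 2.13 to 3.27 in OVE26 and from 2.40 to 2.92 in FVB arrays, below the 25th percentile in all 9 arrays.

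Among arrays in which Xist lay below the Y-linked genes, 1422053_at read 7.31 and 7.56 in OVE26 1 and 4, against 4.96, 4.78 and 4.41 in FVB 1, 3 and 4. Among those in which it lay above them, the values were 6.76, 7.14 and 6.94 in OVE26 2, 3 and 5, against 6.13 in FVB 2. The second kind holds a single FVB array. With Xist minus the Y-linked genes as a covariate the difference was 1.96.

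**Figure D1:**
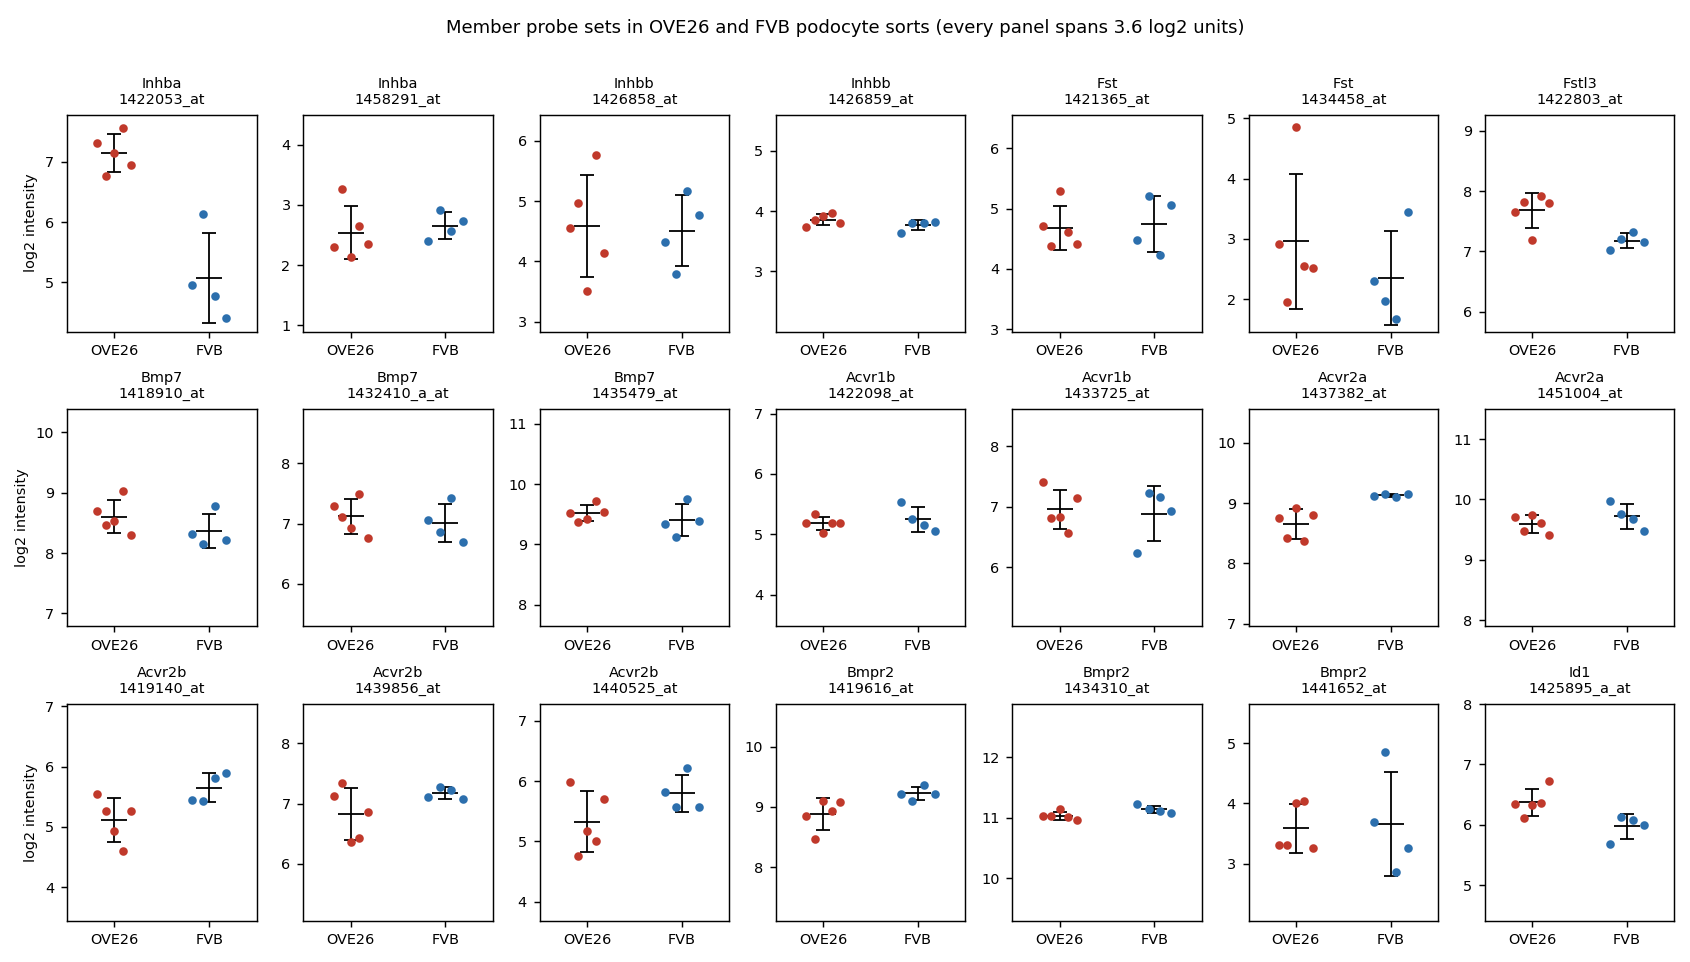
Log2 intensity (vertical axis, 3.6 units in every panel) of the 21 member probe sets in 5 OVE26 (red) and 4 FVB (blue) arrays, with black bars for mean ± SD. Inhba 1422053_at, Acvr2a 1437382_at and Bmpr2 1419616_at are the probe sets whose groups do not overlap, and the last of these is separated by less than 0.01.

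Markers of other cell types differed between the same arrays. The score of 22 measured distal nephron markers (thick limb, distal tubule and collecting duct), the mean of their centred log2 values, averaged 0.63 ± 0.55 for OVE26 arrays (SD, n = 5), against -0.79 ± 0.53 for FVB arrays (SD, n = 4). Of these markers Fxyd4, Atp6v0d2 and Krt18 were called higher by limma (16 of 22 at an unadjusted p under 0.05), and the summed linear intensity of all 22 ran from 6172 to 13870 in OVE26 and from 2336 to 9266 in FVB arrays. Although these sums overlapped, the distal score was higher in every OVE26 array (lowest 0.24, OVE26 1) than in any FVB array (highest -0.14, FVB 2). Distal score and group thus go together, and fits with that score as a covariate cannot fully tell them apart. Of 10 parietal epithelial markers Krt8 and Krt18 were called higher by limma (6 of 10 at an unadjusted p under 0.05), with scores of 0.52 ± 0.35 for OVE26 arrays (SD, n = 5), against -0.65 ± 0.40 for FVB arrays (SD, n = 4). Krt18 was on both the distal and the parietal list, so these lists are not independent. The parietal score was also higher in every OVE26 array (lowest 0.10, OVE26 1) than in any FVB array (highest -0.13, FVB 2). The summed intensity of all 10 parietal markers ran from 3478 to 6961 in OVE26 and from 1941 to 3830 in FVB arrays. Of 22 macrophage markers 0 were called by limma (10 at an unadjusted p under 0.05), with sums from 1016 to 3279 in OVE26 and from 1088 to 1445 in FVB arrays. Their score averaged 0.29 ± 0.35 for OVE26 arrays (SD, n = 5), against -0.37 ± 0.14 for FVB arrays (SD, n = 4), and all OVE26 arrays but OVE26 2 lay above the FVB arrays. Itgam and Ccr2 of that list lay below the 25th percentile in every array. No marker of the proximal tubule (14 measured), glomerular endothelium (15) or mesangium and smooth muscle (11) was called by limma, with 0, 2 and 2 at an unadjusted p under 0.05. That share was 13.7% over all probe sets and 14.5% over all genes by their brightest probe set. At an adjusted p under 0.05, limma called 0.291% of all genes higher by their brightest probe set and 0.0660% lower.

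FVB 2 had the highest distal, parietal, macrophage and glomerular endothelial scores of the FVB arrays, at -0.14, -0.13, -0.21 and 0.48. It did not have the highest podocyte, proximal tubule or mesangial score. It also had the highest Inhba value of that group. OVE26 2 had the highest distal score of all, 1.58, and the lowest Inhba value of the OVE26 arrays. OVE26 4 had the highest parietal score, 1.02, and the highest Inhba value. By contrast, OVE26 1 had the lowest parietal score of the OVE26 arrays, 0.10, and the second highest Inhba value, 7.31. The Inhba difference was 1.78 with the distal score as a covariate and 1.58 with the macrophage score. The part of these cells in the Inhba difference was not tested.

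Of 12350 genes compared, those whose profile over the 9 arrays came closest to Inhba 1422053_at were Lad1, Ocln and Sorl1. Likeness was measured as the root-mean-square difference between profiles that were each centred on their own mean, and it was 0.28 for Lad1, 0.36 for Ocln and 0.37 for Sorl1, against a median of 1.16 over the genes compared. Lad1 encodes ladinin, a protein of epithelial basement membranes and actin filaments, and Ocln encodes the tight junction protein occludin. Sorl1 encodes a sorting receptor of the endosome. Lad1 read 6.82, 6.81, 6.70, 7.0 and 6.43 in OVE26 arrays 1 to 5, against 4.42, 6.19, 4.84 and 4.41 in FVB arrays 1 to 4. As with Inhba, FVB 2 was close to the OVE26 arrays and the other FVB arrays were low, which follows from the search for likeness.

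**Figure D2:**
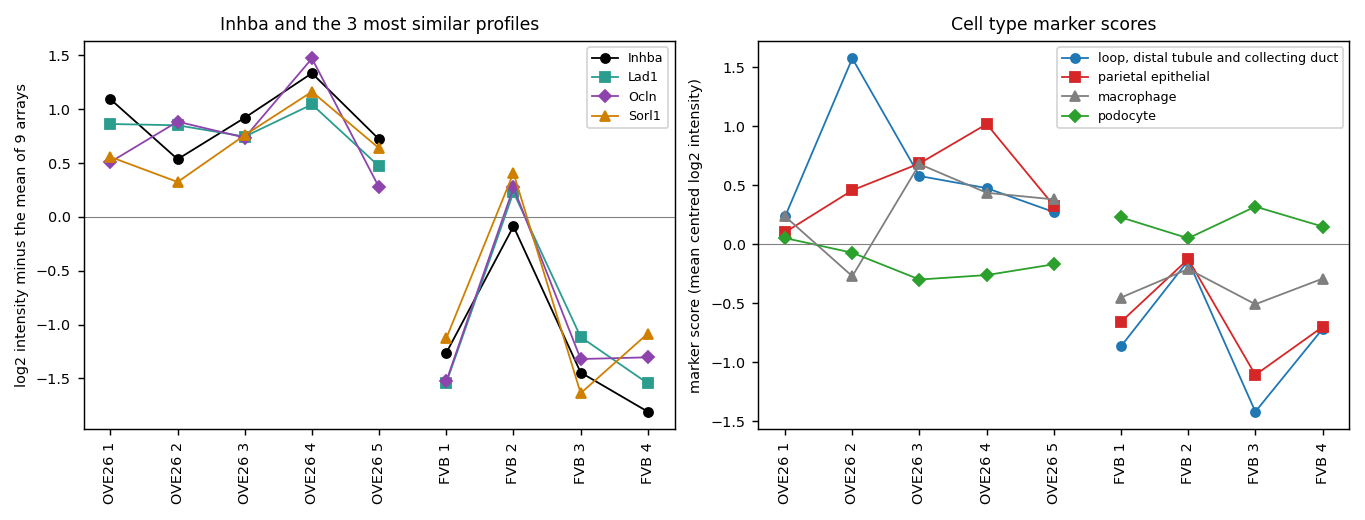
Left, log2 intensity minus the gene's mean over 9 arrays for Inhba 1422053_at and the 3 genes with the closest profiles; right, scores of 4 marker lists in the same arrays, with thin lines to guide the eye. All 4 genes and the distal, parietal and macrophage scores have FVB 2 as the highest FVB array. The 3 genes were picked for their likeness to Inhba over these same arrays, so this shared feature follows from the search.

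Of the 19 probe sets of the other 9 genes, 0 were called by limma in either direction at an adjusted p under 0.05 (adjusted p from 0.169 to 0.965), where 0.271% of all probe sets were called. At an unadjusted p under 0.05 there were 5 of 19 (26.3%), where 13.7% of all probe sets were. Their median difference was -0.06, against -0.01 over all probe sets, with 9 above 0 and 10 below. The groups did not overlap for 2 of the 19, both lower in OVE26, where this held for 5.45% of all probe sets. The probe sets of a gene share their target, so they are not independent.

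The second activin subunit gene, Inhbb, which encodes beta B, was low and variable. Its probe set 1426858_at read 4.56, 4.97, 3.51, 5.76 and 4.14 in OVE26 arrays, against 4.32, 3.79, 5.16 and 4.77 in FVB arrays. The groups overlapped throughout, and the difference was 0.07 with a 95% interval from -0.88 to 1.03 (limma, adjusted p = 0.965). The other probe set, 1426859_at, stayed between 3.64 and 3.97 in all arrays, near the lower quartile.

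Both Bmp7 and the follistatin genes encode secreted proteins. For Bmp7 the brightest probe set, 1435479_at, read 9.53, 9.37, 9.42, 9.72 and 9.54 in OVE26 arrays, against 9.34, 9.12, 9.76 and 9.39 in FVB arrays. The highest value of all was in FVB 3, and the difference was 0.11 (95% interval -0.20 to 0.43; limma, adjusted p = 0.793). Its other probe sets differed by 0.24 (1418910_at) and 0.11 (1432410_a_at), with adjusted p of 0.616 and 0.860 by limma. All 3 had the same high arrays, OVE26 4 and FVB 3, within their groups.

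Fst, which encodes follistatin, read 4.70, 4.38, 5.29, 4.60 and 4.41 in OVE26 arrays by 1421365_at, against 4.47, 5.20, 4.23 and 5.06 in FVB arrays. The values interleaved, with a difference of -0.06 (95% interval -0.62 to 0.49; limma, adjusted p = 0.947). Its probe set 1434458_at lay above the 25th percentile in 2 of 9 arrays, OVE26 3 at 4.85 and FVB 4 at 3.45.

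Fstl3, the second activin-binding antagonist, had higher values in most OVE26 arrays without passing the test. Probe set 1422803_at read 7.66, 7.82, 7.19, 7.92 and 7.81 in OVE26 arrays, against 7.02, 7.21, 7.32 and 7.16 in FVB arrays. In OVE26 4 of 5 arrays lay above all FVB arrays, and OVE26 3 lay among them. The difference was 0.50 ± 0.16 (SE), 1.42-fold, with a 95% interval from 0.16 to 0.85 (limma, adjusted p = 0.197). Without 1 array it ran from 0.44 to 0.63, with adjusted p by limma from 0.114 to 0.429, the lowest p being that without OVE26 3. OVE26 3 was thus the lowest of its group for Fstl3 and the highest of all arrays for Fst.

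Receptor genes showed small differences that did not pass the test. All 8 probe sets of the type II receptor genes Acvr2a, Acvr2b and Bmpr2 had a difference below 0, from -0.53 to -0.08, with a median of -0.34, while 51.1% of all probe sets lay below 0. None of the 8 passed the test by limma (adjusted p from 0.169 to 0.957, with 3 at an unadjusted p under 0.05, as 13.7% of all probe sets were), and they stand for 3 genes. All 8 also lay below 0 after quantile normalization, after median centring and with the sex covariate. It was 6 of 8 with the distal score as a covariate, and 7 of 8 with the macrophage score, with the replicate block and without OVE26 5 or FVB 2. Podocyte markers were also lower in OVE26 arrays on average. Their score over 13 measured genes averaged -0.15 ± 0.14 for OVE26 arrays (SD, n = 5), against 0.19 ± 0.11 for FVB arrays (SD, n = 4). None of the 13 was called by limma (6 at an unadjusted p under 0.05), and their summed linear intensity ran from 36830 to 45220 in OVE26 and from 43488 to 48914 in FVB arrays. Their part in the receptor differences was not tested.

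Acvr2a encodes the activin type II receptor ActRIIA. Its probe set 1437382_at read 8.76, 8.42, 8.93, 8.37 and 8.80 in OVE26 arrays, against 9.12, 9.14, 9.10 and 9.14 in FVB arrays. The 4 FVB arrays had an SD of 0.02, and all 5 OVE26 arrays were below them. The difference was -0.47 ± 0.13 (SE), with a 95% interval from -0.77 to -0.17 (limma, adjusted p = 0.169). The brighter probe set 1451004_at gave -0.13 (95% interval -0.42 to 0.16; limma, adjusted p = 0.725), and its groups overlapped.

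For Acvr2b, which encodes the related receptor ActRIIB, 1419140_at read 5.55, 5.26, 4.93, 4.60 and 5.26 in OVE26 arrays, against 5.44, 5.43, 5.82 and 5.88 in FVB arrays. In OVE26 4 of 5 arrays lay below all FVB arrays, and OVE26 1 overlapped them. The difference was -0.53 ± 0.20 (SE) (limma, adjusted p = 0.277). The probe sets 1439856_at and 1440525_at gave -0.35 and -0.47 (limma, adjusted p = 0.504 and 0.465), each with 3 of 5 OVE26 arrays below all FVB arrays.

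Bmpr2 encodes the BMP type II receptor. Its probe set 1419616_at read 8.84, 8.46, 9.10, 8.93 and 9.08 in OVE26 arrays, against 9.22, 9.10, 9.36 and 9.21 in FVB arrays. The groups did not overlap, although OVE26 3 and FVB 2 were almost equal. The difference was -0.34 ± 0.14 (SE) (limma, adjusted p = 0.336). The brightest probe set, 1434310_at, averaged 11.03 ± 0.07 for OVE26 arrays (SD, n = 5), against 11.14 ± 0.06 for FVB arrays (SD, n = 4), a difference of -0.11 (95% interval -0.31 to 0.10; limma, adjusted p = 0.664). The dim probe set 1441652_at lay above the 25th percentile in 4 of 9 arrays. Adjusting for the distal score turned 1419616_at to 0.10 (limma, adjusted p = 0.917), and adjusting for the macrophage score turned it to -0.71 (limma, adjusted p = 0.159).

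Acvr1b encodes the type I receptor ALK4 of activins. Its brighter probe set 1433725_at read 7.41, 6.81, 6.84, 6.57 and 7.14 in OVE26 arrays, against 6.23, 7.23, 7.16 and 6.92 in FVB arrays. No group was higher, and the difference was 0.07 (95% interval -0.45 to 0.59; limma, adjusted p = 0.935). The other probe set differed by -0.07 (1422098_at; limma, adjusted p = 0.862).

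Id1, a transcriptional inhibitor that BMP signals switch on, read 6.34, 6.11, 6.33, 6.37 and 6.73 in OVE26 arrays by 1425895_a_at, against 5.68, 6.13, 6.07 and 6.0 in FVB arrays. In OVE26 4 of 5 arrays lay above all FVB arrays, with OVE26 2 just under FVB 2. The difference was 0.40 ± 0.15 (SE), 1.32-fold, with a 95% interval from 0.08 to 0.73 (limma, adjusted p = 0.261). Adjusting for the macrophage score gave 0.17 (limma, adjusted p = 0.791), and adjusting for the distal score gave 0.61 (limma, adjusted p = 0.645).

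Of 92 other pathway genes listed, 83 were measured with a probe set of a single symbol, and each is given by its brightest one. By limma 1 rose (Grem1), 0 fell and 82 did not pass, where 0.291% of all genes by their brightest probe set were called higher and 0.0660% lower. At an unadjusted p under 0.05 there were 8 of 83 (9.64%), below the 14.5% of all genes. Their median difference was 0.04, against 0.01 over the brightest probe sets of all genes.

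Grem1 encodes gremlin, a secreted antagonist that binds BMP2, BMP4 and BMP7. Its probe set 1425357_a_at read 5.35, 6.77, 5.67, 5.75 and 5.89 in OVE26 arrays, against 4.15, 3.65, 3.69 and 4.04 in FVB arrays. All OVE26 arrays lay above all FVB arrays by more than 1 log2 unit, and FVB 2 was the lowest array. OVE26 arrays averaged 5.89 ± 0.53 (SD, n = 5), against 3.88 ± 0.25 for FVB arrays (SD, n = 4). The difference was 2.00 ± 0.26 (SE), 4.01-fold (limma, adjusted p = 0.0255). The FVB values lay above the 25th but below the 40th percentile of their arrays, so the fold rests on low FVB values. OVE26 2 was the highest for Grem1 and for the distal score. FVB 2, the lowest for Grem1, had the highest distal score of the FVB arrays, -0.14. With the distal score as a covariate the Grem1 difference was 1.28 (limma, adjusted p = 0.573), in a fit that called 0 of 45037 probe sets. With the macrophage score it was 2.70 (limma, adjusted p = 0.0712). The part of distal cells in the Grem1 difference was not tested. Without 1 array Grem1 passed in 4 of 9 fits, with differences from 1.78 to 2.14 over all 9; it missed the threshold without OVE26 3 or 5 or FVB 1, 3 or 4 (limma, adjusted p from 0.0610 to 0.0880).

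Among 22 secreted antagonists and modulators, Grem1 rose and 21 genes did not pass, with a median difference of 0.11. Sostdc1, which encodes a BMP and Wnt antagonist of the kidney, read 10.61, 11.43, 10.94, 11.19 and 11.20 in OVE26 arrays, against 8.59, 10.93, 8.26 and 9.14 in FVB arrays. FVB 2 again lay near the OVE26 arrays and just below the second lowest of them. The difference was 1.84 ± 0.47 (SE) (limma, adjusted p = 0.137). Without 1 array it ran from 1.52 without FVB 3 (limma, adjusted p = 0.297) to 2.41 without FVB 2 (limma, adjusted p = 0.00836), and with the distal score as a covariate it was 0.30 (limma, adjusted p = 0.922). Its probe set 1460250_at differed by 2.19 (limma, adjusted p = 0.170). Fstl1, which encodes a follistatin-like glycoprotein, differed by 0.33 by its brightest probe set (limma, adjusted p = 0.396), and by 0.55 by 1416221_at (limma, adjusted p = 0.305). The groups of 1416221_at did not overlap, as held for 5.45% of all probe sets.

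**Figure D3:**
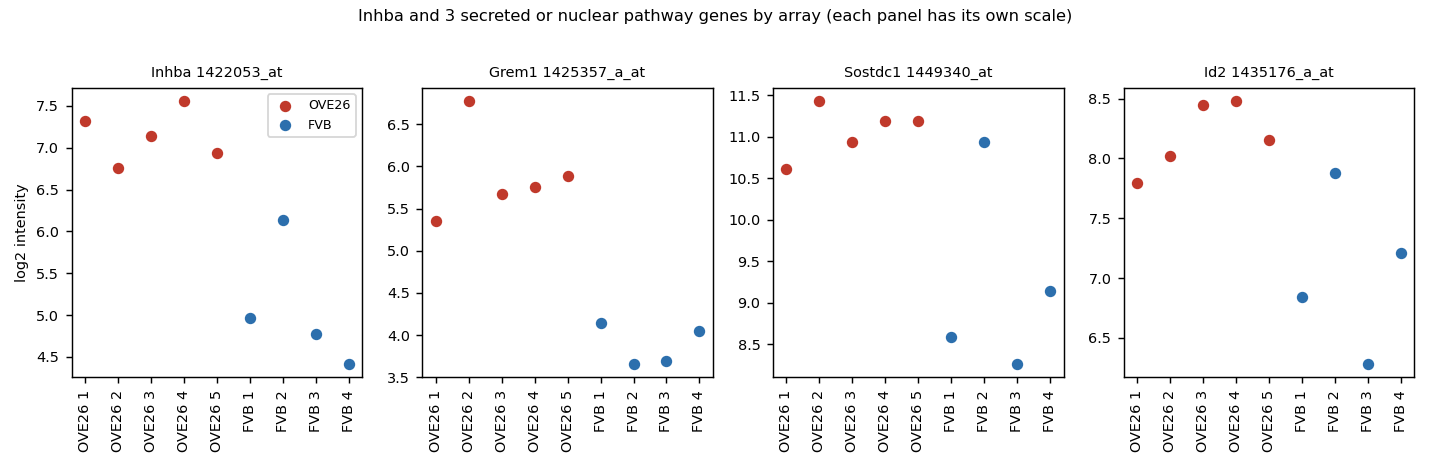
Log2 intensity of Inhba, Grem1, Sostdc1 and Id2 in each OVE26 (red) and FVB (blue) array; each panel has its own vertical scale. FVB 2 is the highest FVB array for Inhba, Sostdc1 and Id2 and the lowest for Grem1.

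Of 21 other ligand genes 0 passed by limma (1 at an unadjusted p under 0.05, as 14.5% of all genes were), with a median difference of 0.05. Bmp2, a BMP ligand, differed by 1.28 ± 0.48 (SE) (limma, adjusted p = 0.276). It read 6.45, 5.71, 7.82, 7.86 and 6.40 in OVE26 arrays, against 4.83, 6.27, 5.20 and 5.94 in FVB arrays, with OVE26 2 below FVB 2 and FVB 4. The growth and differentiation factor genes Gdf9 and Gdf10 differed by -0.36 and -0.44 (limma, adjusted p = 0.388 and 0.634).

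Of 13 other receptors and co-receptors 0 passed by limma (0 at an unadjusted p under 0.05), and 10 of the 13 differences lay below 0, with a median of -0.08, where 47.4% of all genes lay below 0. Bmpr1b, a BMP type I receptor gene, differed by -0.54 (adjusted p = 0.368). Tgfbr3, the gene of the co-receptor betaglycan, differed by -0.29 (adjusted p = 0.486), and the pseudoreceptor gene Bambi by -0.26 (adjusted p = 0.508).

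Of 16 genes of SMADs and their regulators 0 passed by limma (2 or 12.5% at an unadjusted p under 0.05, as 14.5% of all genes were). Of the 16 differences 11 lay below 0, with a median of -0.14, where 47.4% of all genes lay below 0. Smad5, which encodes a BMP-pathway SMAD, differed by -0.40 ± 0.13 (SE) by 1433641_at (limma, adjusted p = 0.204). It read 8.76, 8.79, 8.75, 8.52 and 9.08 in OVE26 arrays, against 9.03, 9.16, 9.26 and 9.28 in FVB arrays, and 4 of 5 OVE26 arrays lay below all FVB arrays. Its probe sets 1421047_at and 1451873_a_at differed by -0.37 and -0.34 (limma, adjusted p = 0.262 and 0.222), and the groups of the second did not overlap. Smad2, which encodes an activin-pathway SMAD, differed by -0.46 (1420634_a_at; limma, adjusted p = 0.294) and by -0.36 with groups that did not overlap (1442062_at; limma, adjusted p = 0.210), and Smurf1, a ubiquitin ligase of BMP SMADs, by 0.43 (limma, adjusted p = 0.388). Groups did not overlap for 5.45% of all probe sets, and these further probe sets were picked after their values were seen.

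Of 11 target genes 0 passed by limma (3 at an unadjusted p under 0.05, as 14.5% of all genes were), and 10 of the 11 differences lay above 0, with a median of 0.18, where 52.6% of all genes lay above 0. Id2, the BMP-induced relative of Id1, read 7.80, 8.02, 8.44, 8.48 and 8.16 in OVE26 arrays by 1435176_a_at, against 6.85, 7.88, 6.28 and 7.21 in FVB arrays. FVB 2 alone reached the OVE26 range, above OVE26 1. The difference was 1.13 ± 0.29 (SE) (limma, adjusted p = 0.140). Without 1 array it ran from 0.87 without FVB 3 (limma, adjusted p = 0.272) to 1.40 without FVB 2 (limma, adjusted p = 0.0345). It was 0.43 with the distal score as a covariate and 0.51 with the macrophage score (limma, adjusted p = 0.834 and 0.629). Its probe set 1422537_a_at had groups that did not overlap (1.03; limma, adjusted p = 0.0791), as held for 5.45% of all probe sets. Tgif1, a repressor in SMAD2 complexes, differed by 1.30 (limma, adjusted p = 0.162), with all 5 OVE26 arrays above all FVB arrays. Id4 differed by 0.99 (limma, adjusted p = 0.280) and read 10.48 in FVB 2, against 8.09 to 9.30 in the other FVB arrays.

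**Figure D4:**
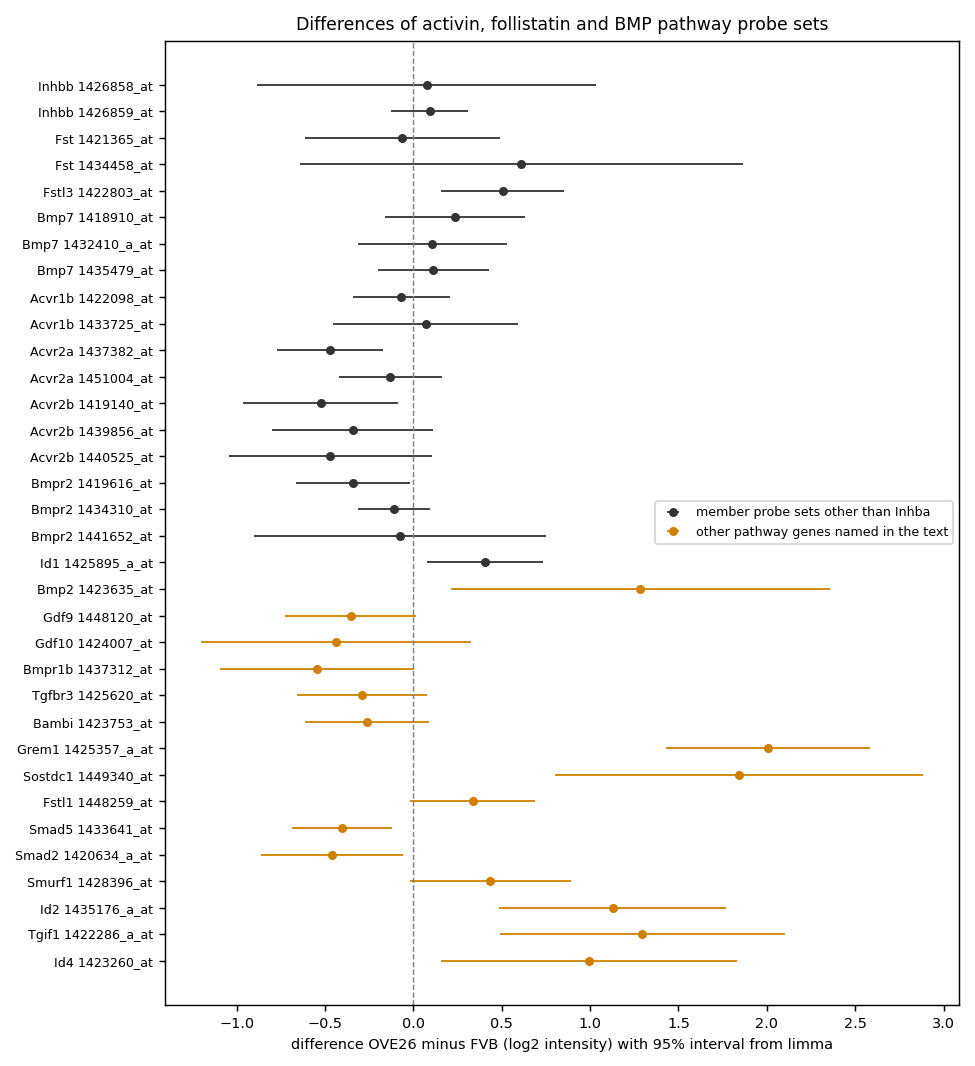
Difference of OVE26 minus FVB on the log2 scale (horizontal axis) with 95% intervals from limma for the 19 member probe sets other than Inhba (black) and 15 other pathway genes (orange). All 8 type II receptor probe sets lie left of 0, and Grem1, at 2.00, is the only one with an adjusted p under 0.05.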

How the data were processed

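Podocyte sorts from 5 OVE26 and 4 FVB mice were each read on 1 array. The deposited values are linear intensities per probe set, as judged from their range; RMA and Partek are named in the submitters' processing notes, with versions and settings not given in the sources used here. RMA shares information across arrays and can pull dim values together. Control probe sets (64) were left out and log2 was taken of 45037 others. The platform annotation gave 1 symbol for 34945. All probe sets were fitted with limma 3.58.1 in R 4.3.3 (lmFit, eBayes, group as the only term, 2-sided), with Benjamini-Hochberg adjustment over all of them and a threshold of 0.05. The fit was checked on simulated data.

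Per the labels each array is from its own mouse, so the spread between arrays holds mice, sorts and amplifications together. The number of arrays limits the precision, with a median standard error of 0.17.

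The members and the lists of pathway and marker genes were chosen with earlier results of these data known. Every member probe set is described. Other pathway genes are named if they passed the threshold or had 1 of the 3 smallest p in their list, and further probe sets of those genes were picked after their values were seen. Profiles like that of Inhba were sought among genes with a mean log2 of at least 4.41, the 40th percentile. Same-numbered arrays did not deviate together (r from -0.18 to 0.11), so replicate numbers were not used as pairs. Alternatives were other probe set summaries, a filter on dim probe sets, other normalizations, variance models, covariates (sex, distal, macrophage and endothelial scores), a replicate block, other thresholds and leaving out each array.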

Additional observations from a re-analysis of the deposited data

Results flagged for a closer look

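In 72 groups of arrays examined (21 member probe sets and 15 other pathway genes, each in OVE26 and FVB), 4 held an array far from the others of its group, by a gap that chance gives in about 5% of groups. Inhbb 1426859_at read 3.64 in FVB 1, below the nearest FVB value of 3.80, at a level near background. Gdf9 read 4.98 in FVB 4, above the next FVB value of 4.31. Bambi read 8.23 in FVB 3, above 7.91. Fstl1 read 11.67 in OVE26 3, above 11.14.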

How the results depend on the processing

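Among members other than Inhba there were 0 calls by limma under all 23 alternatives, 9 of them fits without 1 array. These held all 19 probe sets, except 16 without dim probe sets and 9 where each gene had 1 value. There were 2 to 5 at an unadjusted p under 0.05. With the distal score it was 2 of 19 (3459 of all 45037 probe sets), and with array weights 5 of 19 (7147 of 45037). Without dim probe sets it was 5 of 16 (4718 of 27022). With 1 value per gene it was 2 of 9 by the brightest probe set (2748 of 18193) and 4 of 9 by the mean (2826 of 18193). Over all probe sets the counts of higher and lower calls were 218 and 122 with array weights, 32 and 8 with the sex covariate, 158 and 44 with the endothelial score, 0 and 6 with the macrophage score, and 249 and 151 at a threshold of 0.1. They were 0 and 0 at a threshold of 0.01, with the distal score (3459 probe sets at an unadjusted p under 0.05, by limma) and with the replicate block (5353, by limma); without 1 array they ran from 0 to 323 and from 0 to 101. Among other pathway genes the higher count was 0 with the sex, distal or macrophage covariate, the replicate block or a threshold of 0.01. In those fits 4 to 10 of 83 were at an unadjusted p under 0.05, where 3459 to 6934 of all 45037 probe sets were. The higher count was 2 with the endothelial score (Grem1 and Id2), and 0 to 3 without 1 array, 3 being Grem1, Sostdc1 and Id2 without FVB 2. In the replicate block OVE26 5 has no partner and adds nothing to the difference; Grem1 was then 2.00 (limma, adjusted p = 0.156). Over the 21 settings fitted anew, the Grem1 difference ran from 1.28 to 2.70 and its adjusted p by limma from 0.00986 to 0.573. It was 1.93 (adjusted p = 0.0597) with the sex covariate and 2.70 (0.0712) with the macrophage score. The Inhba difference at 1422053_at stayed between 1.58 and 2.43 in all settings fitted but the mean of both Inhba probe sets, which gave 0.98. The cause was not tested for these changes.

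The member median moved to 0.069 with the brightest probe set per gene, 0.083 with probe sets averaged per gene, which give each gene 1 value, and 0.10 with the distal score. That of the other pathway genes was -0.023 without dim probe sets and -0.057 with the distal score, and 0.011 to 0.052 without 1 array. Differences with no call changed sign as follows. With the distal score Acvr2b 1440525_at was 0.44, Bmpr2 1419616_at 0.10, Bambi 0.044, Smad2 0.13 and Id4 -0.26. With the macrophage score Inhba 1458291_at was 0.44, Fst 1434458_at -0.96, Acvr1b 1422098_at 0.14, Acvr2b 1439856_at 0.28 and Bmp2 -0.37. Inhbb 1426858_at was -0.18 with array weights and -0.0071 with the endothelial score, and Fst 1421365_at was 0.27 with the mean of its probe sets. With the replicate block Fst 1421365_at was 0.0048 and Bmpr2 1441652_at 0.0031. Without 1 array, Inhbb 1426858_at ran from -0.22 to 0.34, Fst 1421365_at from -0.23 to 0.092, Acvr1b 1422098_at from -0.13 to 0.026, Acvr1b 1433725_at from -0.15 to 0.18 and Bmpr2 1441652_at from -0.35 to 0.32. Dim probe sets (Inhba 1458291_at, Fst 1434458_at and Bmpr2 1441652_at) carry little signal over background.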
